A study of Homo sapiens with 6 samples.

Results

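The genes described are the heat shock transcription factor HSF1 and 9 genes of heat shock proteins, namely HSPA8, HSPA1A, HSPA1B, DNAJB1, HSP90AA1, HSP90AB1, HSPB1, HSPD1 and HSPE1. They were taken by name from GENCODE release 29 and make up 10 of the 58735 gene IDs in the deposited files. RNA was sequenced in 6 libraries labelled as NCI-N87, a human gastric cancer cell line in which the ERBB2 gene is amplified. The groups were KRT17 knockout KO1 (2 libraries), KRT17 knockout KO2 (2 libraries) and wild type, WT (2 libraries). KRT17 encodes keratin 17, an intermediate filament protein of stressed and stratified epithelia. No heat or drug treatment is given for any group. The labels do not say whether KO1 and KO2 are guides or clones, nor whether replicates came from separate cultures, so p-values reflect only how far these libraries differ among themselves, and that spread may be technical.

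Heat shock proteins are molecular chaperones that hold, fold and refold other proteins. HSF1 is kept inactive in unstressed cells, and on proteotoxic stress it forms trimers that bind inverted repeats of the letters GAA, called heat shock elements, in the promoters of chaperone genes. Several of these genes are also expressed without stress, and carcinoma cells are known for high chaperone levels, in part through HSF1.

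The libraries held 17599759 to 22852340 reads, and each member had 711 to 60130 reads per library. KRT17 averaged 2.35 ± 0.0823 FPKM in KO1, 10.9 ± 0.660 in KO2 and 746 ± 10.1 in WT (SD, n = 2 each). FPKM is the number of fragments scaled by exon length and by a total set for each library. That total was 0.945 and 0.936 times the reads recovered from the values in WT. It was 1.029 and 1.039 times in KO1, and 1.052 and 1.055 times in KO2. The scaling thus differed between WT and the knockout groups. The knockout libraries went against the NCI-N87 label at its defining markers: ERBB2 averaged 5.82 FPKM in KO1 and 5.29 in KO2, against 1387 in WT, and the intestinal factor CDX2 was listed at 0 in both KO1 libraries, against 24.9 FPKM in WT. All 10 epithelial markers were lower in KO1 and in KO2, with summed levels of 427 and 438 FPKM in KO1, 366 and 364 in KO2, and 3883 and 3988 in WT, and ESRP1 was listed at 0 in all 4 knockout libraries. Other falls were smaller: KRT8 averaged 196 FPKM in KO1 and 166 in KO2, against 1148 in WT. ELF3 averaged 22.9 FPKM in KO1 and 21.3 in KO2, against 29.5 in WT. Of 10 fibroblast and mesenchymal markers 7 were tested and all 7 were higher in each knockout group, with sums of 129 to 131 FPKM in KO1, 140 to 145 in KO2 and 15.6 to 16.9 in WT. The markers not tested, COL1A2, COL3A1 and THY1, stayed below 1 FPKM in every library. Leukocyte markers summed to at most 3.42 FPKM and endothelial markers to at most 0.746 FPKM in every library. Whether the knockout libraries come from the same line as WT was not tested, and a KRT17 effect and any other difference between these cultures cannot be told apart. In bulk RNA, fewer cells of a type and less RNA per cell cannot be told apart either.

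Heat shock elements were looked up in the 250 bases before each RefSeq start site (GRCh38.p14), to show what the members share in sequence. The searched motif of 2 inverted units was GAANNTTC or TTCNNGAA, and that of 3 units was GAANNTTC followed by NNGAA, or TTCNNGAA followed by NNTTC. The 2-unit forms and the pair of 3-unit forms read the same on both strands, and every 3-unit match contains 2-unit matches. A 2-unit match stood in a window of 8 of the 9 members with a window, against 14% of 27305 genes. A 3-unit match stood in a window of 4 of them (HSPA8, HSP90AA1, HSP90AB1 and HSPD1), against 0.557% of all genes. The stretches below are shown because they hold matches. HSPA8, HSP90AA1 and HSP90AB1 each had a further stretch with a match, which is not shown. Windows at other start sites of HSPD1, HSP90AA1, HSP90AB1 and DNAJB1 held no match. Capitals mark every base of a match, each stretch is 30 bases, and some lie in exons of other GENCODE isoforms.
HSPA8, chr11:123062170-123062199, minus strand: cgggccccTTCTGGAAGGTTCtaagatagg
HSP90AA1, chr14:102087111-102087140, minus strand: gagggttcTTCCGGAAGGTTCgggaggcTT
HSP90AB1, chr6:44247770-44247799, plus strand: ggagcaggTTCTGGAAGATTCatgggctcc
HSPD1, chr2:197500061-197500090, minus strand: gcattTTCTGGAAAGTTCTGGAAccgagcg
HSPB1, chr7:76302480-76302509, plus strand: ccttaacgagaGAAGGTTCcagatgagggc
DNAJB1, chr19:14518456-14518485, minus strand: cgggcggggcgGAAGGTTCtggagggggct
DNAJB1, chr19:14518426-14518455, minus strand: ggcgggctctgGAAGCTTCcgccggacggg
HSPE1, the member without a match, has a window that starts at position 197500129 of chromosome 2, just past the HSPD1 element, since both genes are transcribed away from a shared stretch. A match is a description of the letters and not a bound site.

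All 10 members were tested among 16046 genes. In KO1 against WT, 8 members fell and none rose, where 38.6% of all tested genes were called lower, 39.3% higher and 77.8% in either direction (limma on log2(FPKM + 1), Benjamini-Hochberg adjusted p below 0.05). In KO2 against WT, 7 members fell and 2 rose, where 39.8% of all tested genes were lower, 39.1% higher and 78.9% in either direction. The members' share of falls was thus above the background and their share of calls of either kind was close to it. The median log2 change was -0.72 over the members and 0.02 over all tested genes in KO1, and -0.57 and 0.01 in KO2. A fall beyond 2-fold on the log2 scale was called for 4 members in KO1 (HSPA8, DNAJB1, HSPB1 and HSPE1), where the background was 14.5% lower, 14.8% higher and 29.3% in either direction. It was called for 3 in KO2 (HSPA8, DNAJB1 and HSPE1), where the background was 15.2% in each direction and 30.4% together. DNAJB1 in KO2 stayed called lower but by less than 2-fold with quantile normalization, TPM scaling, the recovered library size and voom (-0.84 to -0.91 log2), which left 2 members. HSPE1 in KO1 did so with the first 3 of these (-0.97 to -0.98 log2), which left 3. Genes with a mean level within the range of the members, up to 692 FPKM and no lower than the lowest member, had a median of -0.06 in KO1 and -0.09 in KO2. Of these 2403 genes 47.2% and 48.9% were called lower. They were not matched to the members' levels within that range. KO1 and KO2 share the WT libraries, so their changes are given side by side.

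**Figure D1:**
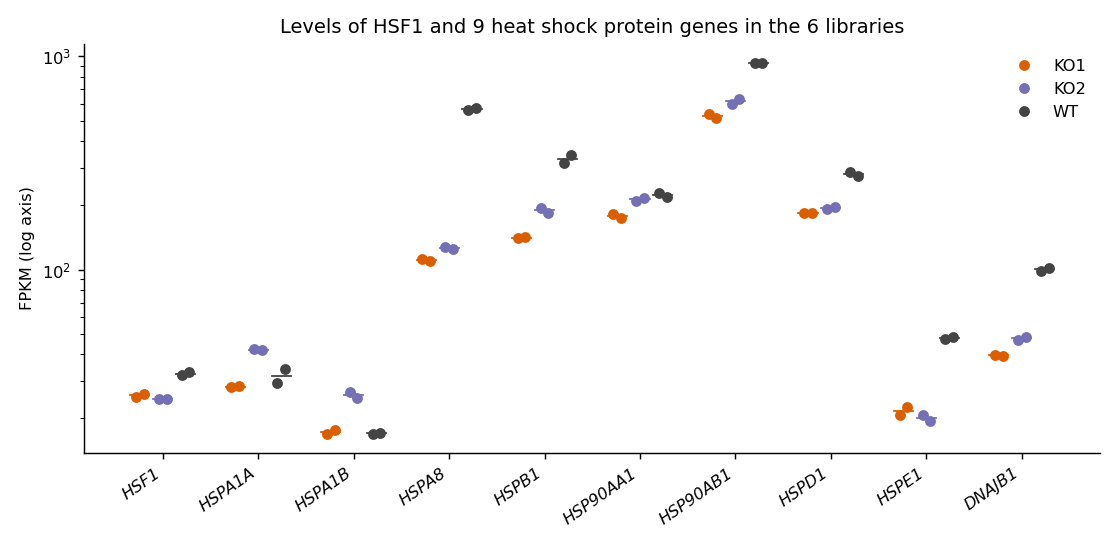
FPKM of HSF1 and the 9 heat shock protein genes in each of the 6 libraries, on a log axis; points are libraries and short lines the group means of KO1, KO2 and WT (n = 2 each). The 4 knockout libraries of HSPA8 lie between 109 and 127 FPKM, against 563 and 573 FPKM in WT, and the KO2 libraries of HSPA1A and HSPA1B lie above WT.

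HSF1, the master regulator of the heat shock response (ENSG00000185122, chromosome 8, 144291591 to 144314722, GRCh38), was the member of the list with no chaperone function. It was at 25.2 and 26.1 FPKM in KO1, 24.6 and 24.6 FPKM in KO2, and 31.9 and 33.1 FPKM in WT. The WT libraries were above all 4 knockout libraries, and KO1 and KO2 lay close together. HSF1 fell 1.27-fold in KO1 (-0.33 ± 0.03 log2, SE; adjusted p = 3.48e-04, limma with Benjamini-Hochberg adjustment) and 1.32-fold in KO2 (-0.39 ± 0.03, adjusted p = 1.78e-04). With quantile normalization the HSF1 falls were smaller, at -0.19 log2 in KO1 and -0.21 in KO2. KO2 and KO1 were not called different (-0.06 log2, 95% interval -0.14 to 0.02, limma adjusted p = 0.247). None of its 50-base stretches of transcript occurred in transcripts of another gene.

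HSPA8, the constitutive cytosolic HSP70 (HSC70), which folds new proteins and uncoats clathrin vesicles, had the largest change among the members. It lies on chromosome 11, 123057489 to 123063230. Its level was 112 and 109 FPKM in KO1, 127 and 125 FPKM in KO2, and 563 and 573 FPKM in WT, so every WT library was far above every knockout library. HSPA8 fell 5.15-fold in KO1 (-2.35 ± 0.02 log2, limma adjusted p = 3.10e-07) and 4.50-fold in KO2 (-2.16 ± 0.02, adjusted p = 3.53e-07). KO2 was 1.14-fold above KO1 (0.19 ± 0.02 log2, limma adjusted p = 0.00567). The 17 annotated HSPA8 pseudogenes held 20 to 53 reads per library in all, at most 0.356% of the HSPA8 reads, and 8.23% of its 50-base stretches also occurred in other genes' transcripts.

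HSPA1A and HSPA1B encode the stress-inducible HSP70, HSP72, and are neighbouring copies in the major histocompatibility complex on chromosome 6 (31815464 to 31817946 and 31827735 to 31830255). Their upstream stretches, shown because they carry the same element in nearly the same letters, were identical at 164 of 171 bases. Capitals again mark the 2-unit match.
HSPA1A, chr6:31815293-31815463, plus strand: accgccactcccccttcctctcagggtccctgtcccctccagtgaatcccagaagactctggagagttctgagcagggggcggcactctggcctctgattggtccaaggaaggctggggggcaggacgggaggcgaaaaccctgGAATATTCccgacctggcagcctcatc
HSPA1B, chr6:31827489-31827659, plus strand: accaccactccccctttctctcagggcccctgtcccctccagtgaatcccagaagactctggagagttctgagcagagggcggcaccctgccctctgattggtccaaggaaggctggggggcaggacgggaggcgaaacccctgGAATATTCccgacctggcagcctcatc
Their longest reading frames, of 1926 bases each, differed at 4 bases, and 71.3% of the 50-base stretches of HSPA1A also occurred in HSPA1B. HSPA1B also shares 920 of its 2521 exon bases with the gene AL671762.1 on the same strand. The sources used here do not say how reads that match several genes were counted, so the split between the pair is uncertain.

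HSPA1A was at 28.1 and 28.3 FPKM in KO1, 42.4 and 41.8 FPKM in KO2, and 29.4 and 34.0 FPKM in WT. HSPA1B was at 16.9 and 17.7 FPKM in KO1, 26.5 and 25.0 FPKM in KO2, and 16.9 and 17.1 FPKM in WT. In both genes the KO2 libraries were above all others, while KO1 and WT lay at nearly the same level. HSPA1A rose 1.33-fold in KO2 (0.40 ± 0.07 log2, limma adjusted p = 0.00301) and HSPA1B 1.51-fold (0.57 ± 0.04, adjusted p = 9.59e-05). Summed to 1 gene, the pair was 0.47 log2 above WT in KO2 (limma adjusted p = 4.92e-04) and -0.09 log2 in KO1 (adjusted p = 0.141). In KO1, HSPA1A was not called against WT (-0.16 log2, 95% interval -0.33 to 0.01, limma adjusted p = 0.0805), and it was called lower without WT replicate 1 (-0.26 log2, adjusted p = 0.00215). HSPA1B in KO1 was not called either (0.02 log2, interval -0.08 to 0.12, limma adjusted p = 0.662), but was called higher by 0.15 to 0.16 log2 with TPM scaling, the recovered library size and voom. Against KO1, KO2 was 1.49-fold higher in each gene (0.56 ± 0.07 and 0.55 ± 0.04 log2, limma adjusted p = 0.00494 and 0.00149).

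DNAJB1 encodes HSP40, the J-domain partner that delivers clients to HSP70 and sets off its ATP hydrolysis. It lies on chromosome 19, 14514770 to 14529770, where 211 of its 3672 exon bases overlap TECR on the opposite strand. Its level was 39.9 and 39.2 FPKM in KO1, 46.8 and 48.4 FPKM in KO2, and 98.7 and 102 FPKM in WT, with the 3 groups apart from each other. DNAJB1 fell 2.53-fold in KO1 (-1.32 ± 0.03 log2, limma adjusted p = 2.12e-06) and 2.10-fold in KO2 (-1.06 ± 0.03, adjusted p = 3.98e-06), and KO2 was 1.20-fold above KO1 (0.26 ± 0.03 log2, adjusted p = 0.00429).

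HSP90AA1 and HSP90AB1 encode the inducible and the constitutive cytosolic HSP90, which hold kinases and receptors, ERBB2 among them, in an active fold. HSP90AB1 (chromosome 6, 44246166 to 44253888) had the highest level of the members in every library. It was at 537 and 512 FPKM in KO1, 601 and 631 FPKM in KO2, and 934 and 936 FPKM in WT. HSP90AB1 fell 1.78-fold in KO1 (-0.83 ± 0.04 log2, limma adjusted p = 1.93e-05) and 1.52-fold in KO2 (-0.60 ± 0.04, adjusted p = 6.09e-05). With quantile normalization its falls were smaller, at -0.46 log2 in KO1 and -0.18 in KO2. HSP90AA1 (chromosome 14, 102080738 to 102139699) was at 181 and 174 FPKM in KO1, 211 and 216 FPKM in KO2, and 229 and 220 FPKM in WT. Its KO1 libraries stood below the others, and its KO2 libraries were a little under WT. HSP90AA1 fell 1.26-fold in KO1 (-0.33 ± 0.03 log2, limma adjusted p = 4.20e-04), a call that was lost under quantile normalization (-0.09 log2, adjusted p = 0.0743). In KO2 it was not called (-0.07 log2, 95% interval -0.16 to 0.02, limma adjusted p = 0.107), and its direction turned to a called rise of 0.09 to 0.17 log2 with quantile normalization, TPM scaling and voom. KO2 was above KO1 in both genes, by 0.26 ± 0.03 log2 for HSP90AA1 (limma adjusted p = 0.00637) and 0.23 ± 0.04 for HSP90AB1 (adjusted p = 0.0121). The HSP90AB1 call was lost without WT replicate 1, WT replicate 2 or KO1 replicate 2 (adjusted p = 0.0580, 0.0582 and 0.0724), with no filter on low values (0.0609) and with only the 4 libraries compared (0.0613).

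HSPD1 and HSPE1 encode HSP60 and HSP10, the chamber and the lid of the mitochondrial chaperonin. The 2 genes lie head to head on chromosome 2 (197486581 to 197516737 and 197499994 to 197503457). HSPD1 was at 184 and 185 FPKM in KO1, 193 and 196 FPKM in KO2, and 288 and 275 FPKM in WT. HSPE1 was at 20.8 and 22.7 FPKM in KO1, 20.8 and 19.4 FPKM in KO2, and 47.2 and 48.3 FPKM in WT. WT was above all knockout libraries in both genes. HSPD1 fell 1.53-fold in KO1 (-0.61 ± 0.03 log2, limma adjusted p = 2.72e-05) and 1.45-fold in KO2 (-0.53 ± 0.03, adjusted p = 4.21e-05). HSPE1 fell 2.20-fold in KO1 (-1.10 ± 0.05 log2, limma adjusted p = 2.53e-05) and 2.38-fold in KO2 (-1.21 ± 0.05, adjusted p = 1.75e-05). KO2 and KO1 were not called different for HSPD1 (0.08 log2, 95% interval -0.002 to 0.153, limma adjusted p = 0.138) or HSPE1 (-0.11 log2, interval -0.25 to 0.03, adjusted p = 0.205). Exons of HSPE1 overlap those of HSPD1 over 281 bases on the opposite strand and those of HSPE1-MOB4 over 192 bases on the same strand. Its 26 pseudogenes held 5.99% to 7.70% of the HSPE1 reads in the knockout libraries and 2.68% and 3.22% in WT, so its level is uncertain.

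HSPB1 encodes HSP27, a small heat shock protein that holds unfolded proteins without ATP and binds actin and keratin filaments. It lies on chromosome 7, 76302544 to 76304295. Its level was 140 and 142 FPKM in KO1, 195 and 184 FPKM in KO2, and 316 and 345 FPKM in WT, with no overlap between groups. HSPB1 fell 2.34-fold in KO1 (-1.22 ± 0.05 log2, limma adjusted p = 1.55e-05) and 1.74-fold in KO2 (-0.80 ± 0.05, adjusted p = 7.07e-05). KO2 was 1.35-fold above KO1 (0.43 ± 0.05 log2, limma adjusted p = 0.00519).

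**Figure D2:**
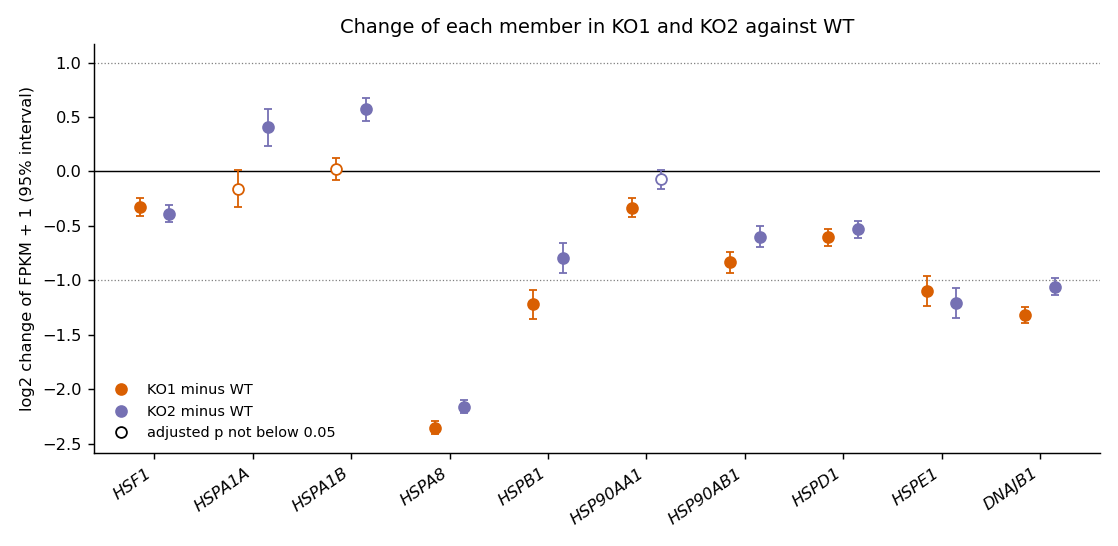
Change of each member on the log2(FPKM + 1) scale in KO1 and KO2 against WT, with the 95% interval from limma; filled points have an adjusted p below 0.05, and dotted lines mark a change of 2-fold. HSPA8 is lowest at -2.35 and -2.16, and HSPA1A and HSPA1B are above 0 with filled points in KO2.

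In KO2 against KO1, 7 members were higher (HSPA1A, HSPA1B, HSPA8, HSPB1, HSP90AA1, HSP90AB1 and DNAJB1), 3 were not called and none was lower. Among all tested genes 11.2% were higher, 15% lower and 26.2% in either direction in that comparison, and 6 to 7 members were called when any 1 library was left out. The count over all genes rests more on single libraries: it was 4203, and 1849 and 1971 without KO1 replicates 1 and 2, and 2757 and 2539 without KO2 replicates 1 and 2. No member differed by 2-fold between KO2 and KO1, against 1.37% of all genes (0.511% higher and 0.86% lower).

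By mean level, WT was highest for 8 members, and the order WT, KO2, KO1 held with each step called for HSPA8, HSPB1, HSP90AB1 and DNAJB1. For HSP90AA1 the step between WT and KO2 was not called, and for HSF1, HSPD1 and HSPE1 that between the knockout groups was not. For HSPA1A and HSPA1B, KO2 was highest and KO1 and WT were not called different.

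Since FPKM is scaled per library, levels were also compared within a library. The 9 chaperone genes made up 0.444% and 0.437% of all FPKM in KO1, 0.533% and 0.545% in KO2, and 0.810% and 0.815% in WT. Their sum, which still carries the scaling between libraries, was 1259 and 1230 FPKM in KO1, 1464 and 1487 FPKM in KO2, and 2523 and 2549 FPKM in WT. The share of HSPA8 in this sum was 8.86% and 8.87% in KO1, 8.69% and 8.44% in KO2, and 22.3% and 22.5% in WT. That of HSP90AB1 was 42.6% and 41.6% in KO1, 41.1% and 42.4% in KO2, and 37.0% and 36.7% in WT. The knockout libraries thus held a smaller HSPA8 share of these transcripts and a larger HSP90AB1 share than both WT libraries. A share of a sum also rises when another gene's part falls, and the HSP90AB1 level itself was lower in both knockout groups.

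The ratio of inducible to constitutive HSP70, HSPA1A plus HSPA1B over HSPA8, was 0.403 and 0.422 in KO1, 0.542 and 0.533 in KO2, and 0.0823 and 0.0891 in WT. It was 5.49-fold higher over the 4 knockout libraries. The ratio of DNAJB1 to HSPA8 was 0.358 and 0.359 in KO1, 0.368 and 0.386 in KO2, and 0.175 and 0.177 in WT. The ratio of HSP90AA1 to HSP90AB1 was 0.338 and 0.340 in KO1, 0.351 and 0.342 in KO2, and 0.245 and 0.235 in WT. That of HSPD1 to HSPE1 was 8.84 and 8.16 in KO1, 9.30 and 10.1 in KO2, and 6.10 and 5.69 in WT. Each of the 4 ratios was higher in all 4 knockout libraries than in both WT libraries. How often ratios of other gene pairs separate in this way was not counted. Of all tested genes 77.8% were called in KO1 and 78.9% in KO2 against WT. HSPA8 is the denominator of the HSP70 and the DNAJB1 ratio, and DNAJB1 itself fell in both groups. With 4 libraries against 2 the exact two-sided permutation test cannot go below p = 0.133, which each ratio reached. Levels are per union exon length, so the size of a ratio also depends on which isoforms are annotated.

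**Figure D3:**
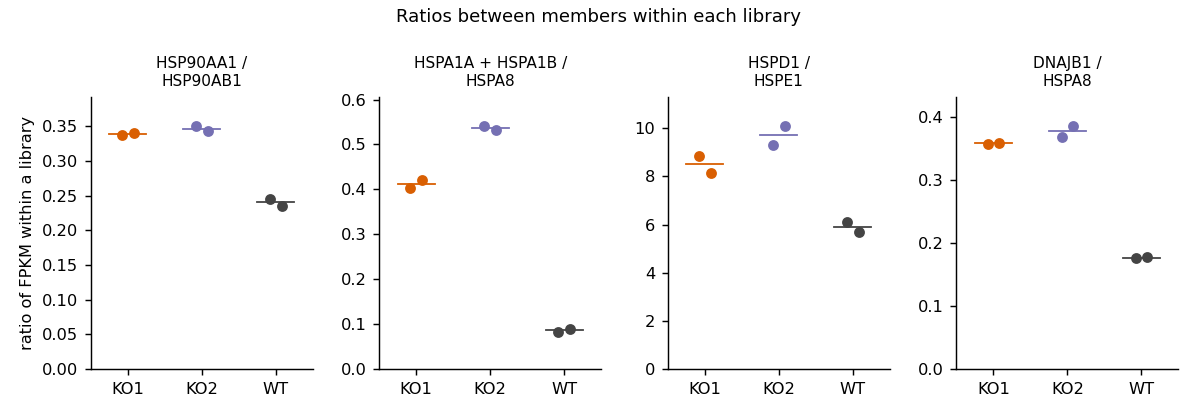
Ratios of FPKM between members within each library, 1 panel per ratio, with the axis from 0; points are libraries and lines the group means of KO1, KO2 and WT (n = 2 each). All 4 knockout libraries lie above both WT libraries in each panel, from 0.403 to 0.542 against 0.0823 and 0.0891 for HSPA1A plus HSPA1B over HSPA8.

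Other genes of the chaperone network came from 10 lists written from general knowledge, with 107 genes of which 97 were tested. In KO1, 38 were higher, 44 lower and 15 not called, and in KO2 40, 47 and 10, so that calls went both ways, as they did among all tested genes. Which direction held more calls depended on the scaling: with TPM scaling 45 were higher and 37 lower in KO1, and 48 and 40 in KO2, and higher calls also outnumbered lower ones with quantile normalization, the recovered library size and voom. Their median log2 change was -0.05 in KO1 and -0.10 in KO2. In KO2 against KO1, 8 were higher and 23 lower, where 11.2% of all tested genes were higher and 15% lower. The split was 15 and 13 with TPM scaling, where 2138 of all tested genes were higher and 1849 lower. It was 14 and 16 with quantile normalization (2191 and 2130 of all tested genes) and 11 and 15 with the recovered library size (2087 and 2120). Without KO1 replicate 1, KO1 replicate 2 or KO2 replicate 2 the 31 calls in that comparison became 12, 12 and 17. The background for each list below is the share over all tested genes against WT. It was 39.3% higher and 38.6% lower in KO1, and 39.1% higher and 39.8% lower in KO2.

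Among the HSF family, HSF4, a factor of the lens and other tissues, rose 3.93-fold in KO1 and 4.33-fold in KO2, to 9.32 and 10.3 FPKM, against 2.37 FPKM in WT (1.61 and 1.74 log2, limma adjusted p = 6.60e-06 and 5.01e-06). HSF2BP, a protein that binds HSF2, averaged 2.12 FPKM in KO1, 2.04 in KO2 and 0.191 in WT, and was called higher in both. HSBP1L1, a relative of the HSF1-binding protein, averaged 8.43 FPKM in KO1, 6.49 in KO2 and 11.5 in WT, and was called lower in both. Of the 5 tested genes of this list 3 rose and 1 fell in each knockout group.

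Of 18 tested HSF1 target genes other than the members, 5 rose and 10 fell in KO1, and 4 rose and 12 fell in KO2, with medians of -0.29 and -0.31 log2. FKBP4, an immunophilin partner of HSP90, fell to 21.0 FPKM in KO1 and 22.3 in KO2, against 66.9 in WT. AHSA1, the activator of HSP90 ATPase, averaged 28.6 FPKM in KO1, 28.6 in KO2 and 79.5 in WT, a fall of 2.78-fold in each. HSPB8, a small heat shock protein of chaperone-assisted autophagy, went the other way, with 16.9 FPKM in KO1 and 15.9 in KO2, against 1.83 in WT (9.18-fold and 8.69-fold higher). HSPA6 and CRYAB, which stress strongly induces, stayed below 1 FPKM in all libraries and were not tested. HSPA6 was at 0.108 and 0.0186 FPKM in KO1, 0.129 and 0.114 FPKM in KO2, and 0.625 and 0.344 FPKM in WT. CRYAB was at 0.141 and 0.0870 FPKM in KO1, 0.404 and 0.337 FPKM in KO2, and 0.0763 and 0.0897 FPKM in WT. These low values were highest in both WT libraries for HSPA6 and in both KO2 libraries for CRYAB.

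Of 8 tested cytosolic HSP70 and HSP110 genes, 6 fell and 1 rose in KO1, and 5 fell and 1 rose in KO2. HSPA2, an HSP70 known from spermatogenesis, averaged 0.869 FPKM in KO1, 1.34 in KO2 and 8.31 in WT. HSPA14, a ribosome-associated HSP70, averaged 8.30 FPKM in KO1, 8.97 in KO2 and 17.3 in WT. HSPA1L, which lies beside HSPA1A, averaged 1.32 FPKM in KO1, 2.06 in KO2 and 0.289 in WT and was the 1 that rose, though its sequence is close to the HSPA1 pair. J-domain proteins were 3 higher and 7 lower of 12 in KO1, and 3 higher and 9 lower in KO2: DNAJA4 fell 3.09-fold in KO1 and 3.67-fold in KO2, and DNAJB9 rose 4.49-fold and 3.37-fold. Exchange factors and BAG proteins, which reset HSP70, were 5 higher and 3 lower of 10 in KO1, and 6 and 4 in KO2. BAG1 rose 3.12-fold in each, BAG6 1.89-fold and 2.13-fold, and HSPBP1 fell 2.32-fold and 2.18-fold.

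HSP90 co-chaperones were 4 higher and 9 lower of 15 tested in KO1, and 3 and 10 in KO2, with medians of -0.21 and -0.58 log2. AHSA2P, annotated as a pseudogene of the AHSA1 family, rose 2.32-fold in KO1 and 2.28-fold in KO2. The list of small heat shock proteins had 3 tested genes, HSPB8, HSPB11 and HSPB3. HSPB8 was higher in both groups, as given above. HSPB11, which stands in the list by its symbol, was 1.49-fold higher in KO1 and 1.46-fold in KO2. HSPB3 was listed at 0 in both KO1 libraries, at 0.0651 and 0.275 FPKM in KO2, and at 8.21 and 7.36 FPKM in WT. Subunits of TRiC, the cytosolic chaperonin, and of prefoldin, which passes clients to it, split into 6 higher and 7 lower of 14 in KO1 and 7 and 7 in KO2. VBP1 fell 2.24-fold in KO1 and 2.32-fold in KO2, TCP1 1.80-fold and 1.93-fold, while PFDN6 was called higher in both, at 22.1 FPKM in KO1 and 23.0 FPKM in KO2 (2.08-fold above WT in KO2).

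Mitochondrial chaperones and proteases were 5 higher and 7 lower of 13 in each knockout group, with CLPB up 2.81-fold in KO1 and 2.30-fold in KO2, LONP1 up 1.94-fold and 1.87-fold, and CLPX down 1.66-fold and 1.95-fold. Chaperones of the endoplasmic reticulum were 8 higher and 3 lower of 15 in KO1, and 10 higher and 2 lower in KO2, with medians of 0.49 and 0.34 log2. Their summed level was 1929 and 1893 FPKM in KO1, 1843 and 1847 FPKM in KO2, and 1386 and 1393 FPKM in WT. HSPA13, a microsomal HSP70, rose 3.19-fold in KO1 and 2.93-fold in KO2, and DNAJB11, a partner of BiP, fell 2.42-fold and 2.68-fold. HSPA5 (BiP) and HSP90B1 (GRP94), the HSP70 and HSP90 of that compartment, were picked after their values were seen. HSPA5 averaged 435 FPKM in KO1, 289.6 in KO2 and 229 in WT, and was called higher in both and lower in KO2 than in KO1. HSP90B1 averaged 285 FPKM in KO1, 303 in KO2 and 169.6 in WT, and was called higher in both.

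**Figure D4:**
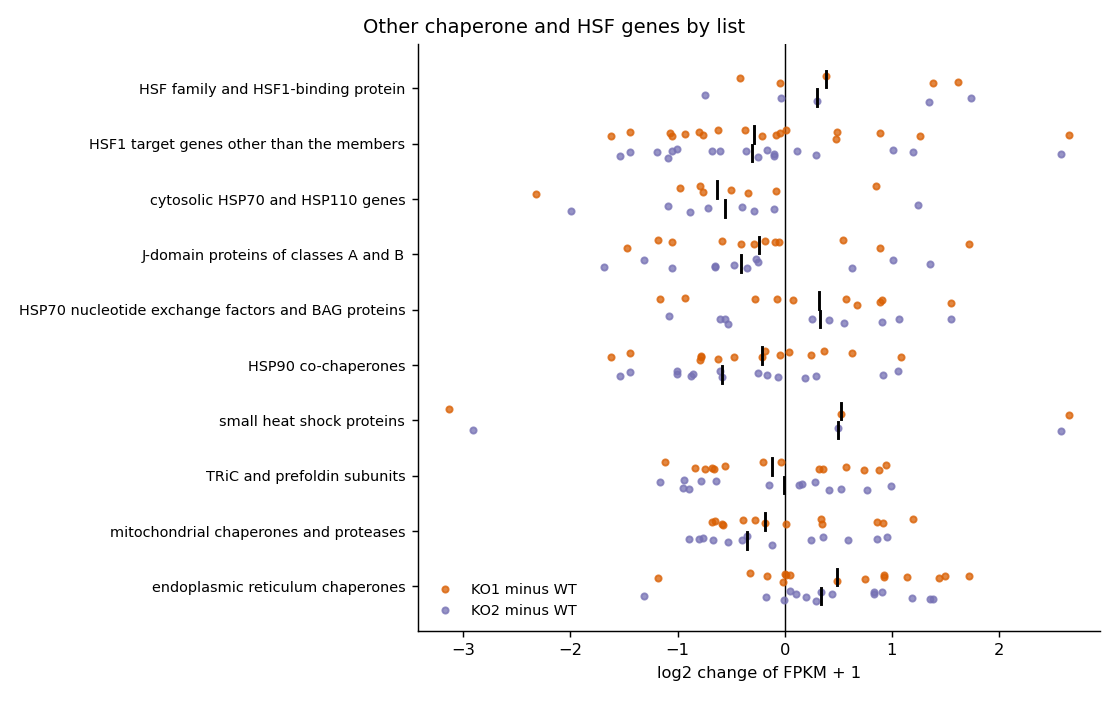
Log2 change of FPKM + 1 for the tested genes of 10 lists that are not members, 1 point per gene, in KO1 (upper row of each list) and KO2 (lower row) against WT; black bars are list medians, and some genes stand in more than 1 list. The medians are 0.49 and 0.34 for chaperones of the endoplasmic reticulum and -0.63 and -0.56 for cytosolic HSP70 and HSP110 genes.

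The members lie on 7 chromosomes and their neighbours within 1 Mb moved in different ways. Beside HSPA8, the 4 tested protein-coding neighbours had a median of 1.16 log2 in KO1 and 0.92 in KO2, with 2 higher and 2 lower in each, and all 4 were above HSPA8. Around HSPD1 and HSPE1, all 7 neighbours were lower in both groups, with medians of -0.51 and -0.43 log2, close to the change of HSPD1. Around HSPA1A, 41 of 50 neighbours were higher in KO1 and 39 in KO2, with medians of 0.94 and 0.87 log2, above the changes of HSPA1A itself. In KO2 against KO1 the same 50 genes had a median of -0.01 log2 and ranged from -1.10 to 0.41, against 0.56 for HSPA1A. Around HSF1, 20 of 61 neighbours were higher and 31 lower in KO1, with a median of -0.16 log2. Among all tested genes 39.3% were higher and 38.6% lower in KO1, and 39.1% and 39.8% in KO2. The part of position in the changes of members and neighbours was not tested.

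**Figure D5:**
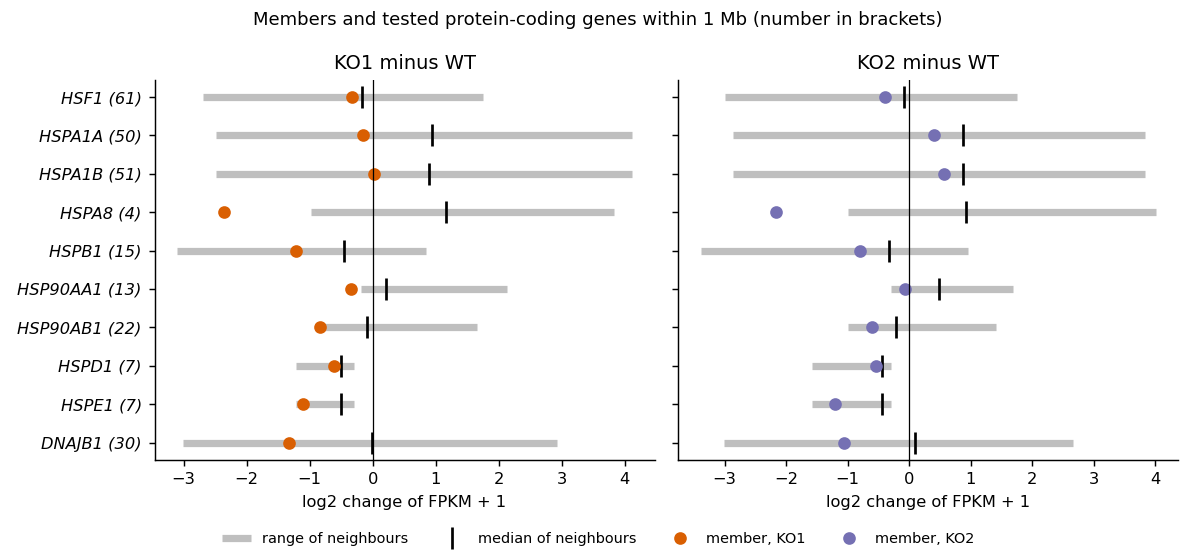
Log2 change of each member in KO1 and KO2 against WT beside the range and median of the tested protein-coding genes within 1 Mb, whose number is in brackets. HSPA8 lies below the range of its 4 neighbours in both comparisons, and the 7 neighbours of HSPD1 and HSPE1 are all below 0.

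The genes whose change was most like that of HSF1 over the 4 knockout libraries, among 11881 protein-coding genes and by the root mean square difference of log2(FPKM + 1) from the WT mean, were DCAF15 (0.0191), PPP2R5A (0.0201) and ZWILCH (0.0215). DCAF15, a substrate receptor of a ubiquitin ligase, averaged 13.9 FPKM in KO1, 13.4 in KO2 and 17.8 in WT. Those most like HSPA8 were PRAG1 (0.0435), NKD1 (0.0437) and CTSO (0.0527). PRAG1 averaged 1.57 FPKM in KO1, 1.89 in KO2 and 12.1 in WT, while NKD1 (4.08 FPKM in WT) and CTSO (4.03 in WT) were at or below 0.147 FPKM in both knockout groups, so that their likeness to HSPA8 holds on the log2(FPKM + 1) scale and not as a fold.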

How the data were processed

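The deposited values are FPKM per gene and library, computed by the authors before deposit. The tools named in the submitters' processing notes are HISAT2 2.0.5 and featureCounts 1.5.0-p3, with the build hg38. The sources used here do not give the strand setting, the annotation release or how reads matching several genes were handled. All 58735 gene IDs were found in GENCODE release 29 (GRCh38). Multiplied by union exon length, FPKM fell on whole multiples of a library-specific unit within 0.1 of that unit for 100% of values, which gave back read numbers; 1 read in 1 kb equals 0.0429 to 0.0544 FPKM.

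The 16046 genes reaching 1 FPKM in 2 libraries were fitted as log2(FPKM + 1) with limma 3.58.1 in R 4.3.3, using group means, a mean-variance trend and all 6 libraries. P-values were Benjamini-Hochberg adjusted over all genes tested. Fold is the ratio of group mean FPKM, and the log2 scale understates changes of low genes. The limma script was tested on simulated data with few changed genes and without the scaling difference between WT and the knockout groups. That test does not show how the calls hold under this difference. Replicate pairs differed by a chi-square of 1.80 to 2.46 per degree of freedom, above counting error. Promoter sequences are from RefSeq (GRCh38.p14).

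Members and lists were chosen with earlier results of these data known. Pathway genes named are the 3 per list with the largest mean log2 change of KO1 and KO2 in size, and 3 genes most like HSF1 and HSPA8 each. Alternatives were another pseudocount, 2 other filters, 3 other scalings, voom on recovered reads, a replicate block, only the libraries compared, a summed HSPA1 pair and each library left out.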

Additional observations from a re-analysis of the deposited data

Results flagged for a closer look

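The change from WT differed between KO1 and KO2 for 7 members, by the limma test of KO2 minus KO1 itself. Among all tested genes 11.2% were called higher and 15% lower in that comparison. The HSP90AB1 call was lost in some alternatives, as given above. The differences were 0.56 log2 for HSPA1A, 0.55 for HSPA1B, 0.43 for HSPB1, 0.26 for HSP90AA1, 0.26 for DNAJB1, 0.23 for HSP90AB1 and 0.19 for HSPA8, each higher in KO2. For HSPA1A and HSPA1B the KO2 level was also above WT, while for the others but HSP90AA1 it stayed below WT by the same test.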

How the results depend on the processing

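Over 16 alternatives, HSF1, HSPA8, DNAJB1, HSPB1, HSP90AB1, HSPD1 and HSPE1 were called lower in KO1 and in KO2 in each. The sizes varied more than the calls. HSF1 ranged from -0.35 to -0.19 log2 in KO1 and from -0.41 to -0.21 in KO2. HSP90AB1 ranged from -0.87 to -0.46 log2 in KO1 and from -0.64 to -0.18 in KO2. Of 477 alternative values of the members 463 kept their side of the threshold and, where called, their direction. Values not called in either setting could change direction and still count among the 463. HSP90AA1 in KO2 against WT was -0.07 log2 and turned to 0.167 with quantile normalization, 0.116 with TPM scaling and 0.089 with voom. With the recovered library size it was 0.091 and not called. The cause of these turns was not tested. TPM scaling, the recovered library size and voom moved the median of all genes to 0.13 to 0.18 log2 in both knockout groups, and changes under them are relative to that shift. With these 3, 1 member (HSPA1B) was called higher and 8 lower in KO1. Quantile normalization left the median of all genes at 0.02 log2 in both knockout groups, and HSF1 and HSP90AB1 fell less under it too. A filter of 5 FPKM left 9303 genes and 8142 and 8194 calls in KO1 and KO2 against WT, since fewer genes were tested. In KO2 against KO1, calls over all genes were 1849 to 3365 without 1 library, and 2138 higher and 1849 lower with TPM scaling; pathway calls were 12 to 23 without 1 library and 20 with no filter, against 31. The replicate numbers do not pair the libraries by the labels, and correlations of same-numbered deviations were -0.038 to 0.019; with a replicate block 8, 9 and 7 members were called in KO1 against WT, KO2 against WT and KO2 against KO1, as without it. Over the alternatives the log2 differences of the ratios, knockout minus WT, ranged from 0.48 to 0.54 log2 (HSP90AA1 to HSP90AB1), 2.39 to 2.53 (HSPA1 pair to HSPA8), 0.57 to 0.67 (HSPD1 to HSPE1) and 1.03 to 1.07 (DNAJB1 to HSPA8). With 2 libraries per group, depth limits mainly the lists' low genes.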
